A study of Mus musculus with 6 samples.

Results

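The 10 genes described here encode inducible parts of the machinery that supplies peptides to MHC class I molecules and, with Nlrc5, a transcriptional activator of class I genes. They were listed by name as Psmb8, Psmb9, Psmb10, Psme1, Psme2, Tap1, Tap2, Tapbp, Erap1 and Nlrc5. Each symbol was matched to its Ensembl identifier, and all 10 were found among the 55335 identifiers in the count tables. RNA-seq had been done on C57 mouse striatum, a forebrain nucleus that receives cortical input. There were 3 libraries from mice whose genotype is given as PDE5A Overexpressing and 3 from mice given as WT, titled NC, which are called control here. PDE5A is a phosphodiesterase that hydrolyses cyclic GMP. The sources used here do not give the promoter or vector behind the overexpression, the cells it reached, the treatment of the control mice, or age and sex. The labels do not say that the libraries came from separate animals, so p-values measure the spread between these libraries, which may be technical.

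The proteasome is a barrel-shaped protease whose 3 catalytic subunits, encoded by Psmb5, Psmb6 and Psmb7, can be replaced by the inducible subunits encoded by Psmb8, Psmb9 and Psmb10. The resulting immunoproteasome cuts proteins into peptides that fit class I molecules well. The TAP transporter carries these peptides into the endoplasmic reticulum, where tapasin helps to load them and the aminopeptidase ERAP1 trims them. Interferons induce most of these genes, and in healthy brain their levels are usually low outside microglia and blood vessels.

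Library totals ran from 33013698 to 39271447 counts in overexpression and from 40653784 to 42288789 in control, so 3 counts, the limit that a count of 0 allows, were worth at most 0.0902 CPM (counts per 1000000 counted reads of a library, after TMM scaling). Pde5a served as the check of the labels and averaged 684 ± 85.5 CPM in overexpression and 4.65 ± 1.26 CPM in control (SD, n = 3 each). Markers of medium spiny neurons, the main neurons of the striatum, were abundant in every library. Their 9 genes summed to between 3307 and 6825 CPM in overexpression and between 3861 and 6852 CPM in control. Choroid plexus markers stood apart in a pair of libraries, with 10 genes summing to 914, 3419 and 316 CPM in overexpression replicates 1 to 3, against 451, 329 and 320 CPM in control replicates 1 to 3. Results below are therefore also given without overexpression replicates 1 and 2. That fit compares a single overexpression library with 3 controls and takes it to vary as the controls do.

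Psmb8, Psmb9, Tap1, Tap2, Tapbp and Nlrc5 were each higher in every overexpression library than in any control library. Their log2 fold changes, overexpression over control, ran from 0.39 for Tapbp to 2.004 for Nlrc5. The other 4 genes, Psmb10, Psme1, Psme2 and Erap1, overlapped between the groups, with log2 fold changes of 0.16 to 0.20. None of the 10 passed an adjusted p of 0.05 in edgeR's quasi-likelihood test over 19809 genes, where 1 gene, Pde5a, was called (0.00505%). At an unadjusted p under 0.05 there were 6 of the 10 higher, beside 2.25% of all genes tested, and 0 lower, beside 1.64%. The groups did not overlap for the same 6, higher in overexpression, beside 4.81% of all genes tested, and for 0 in the other direction, beside 4.11%. The log2 fold change was above 0 for 10 of the 10, beside 50.6% of all genes tested. The DESeq2 Wald test called 3 of the 10 higher, Psmb8, Tap1 and Nlrc5, beside 0.345% of genes, and 0 lower, beside 0.0213%, and limma-voom called 0. The median log2 fold change was 0.55 over the 10 genes and 0.0016 over all genes tested. In tissue RNA, more cells of a type and more RNA per cell cannot be told apart.

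**Figure D1:**
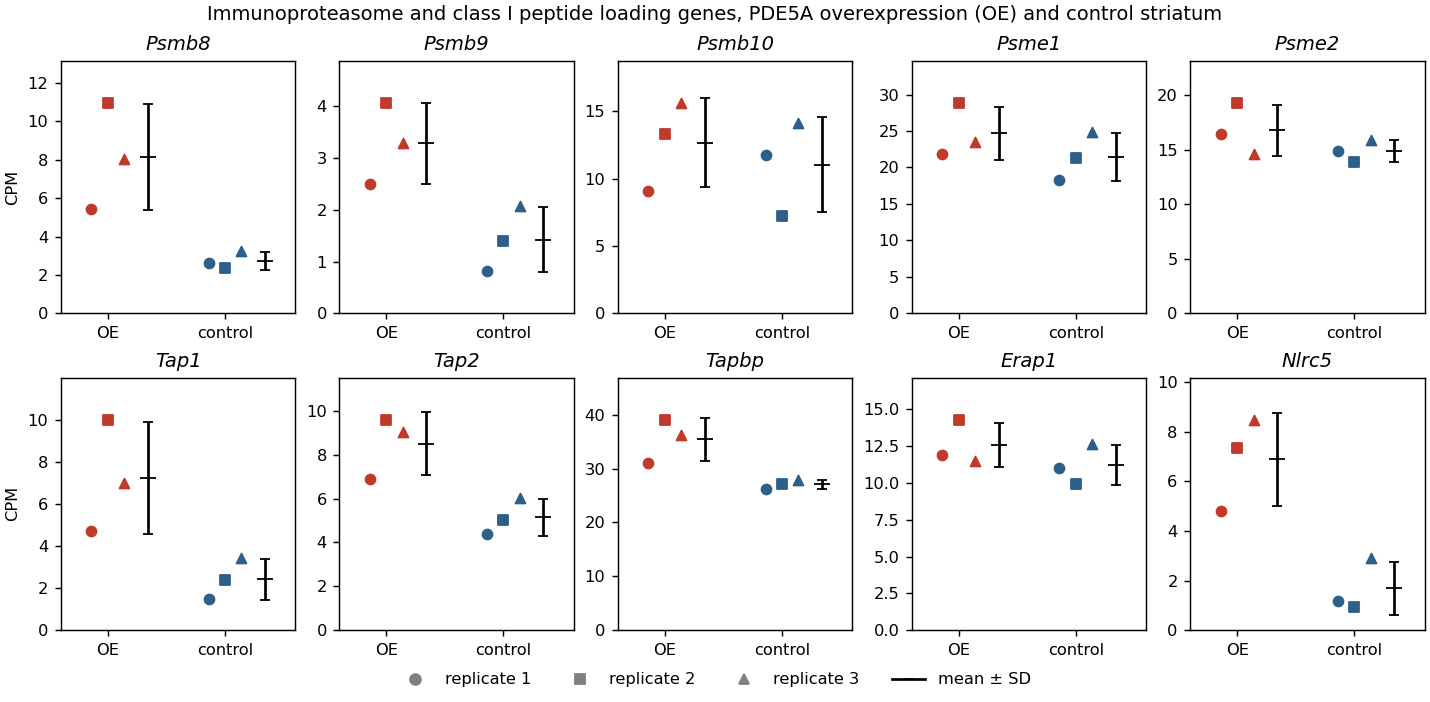
Normalised read counts (CPM, linear axes from 0) of the 10 genes in each overexpression (OE) and control library; symbols mark the replicate, and the bar gives the mean ± SD of 3 libraries. For Psmb8, Psmb9, Tap1, Tap2, Tapbp and Nlrc5 all 3 overexpression points lie above all 3 control points, while the other 4 genes overlap.

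**Figure D2:**
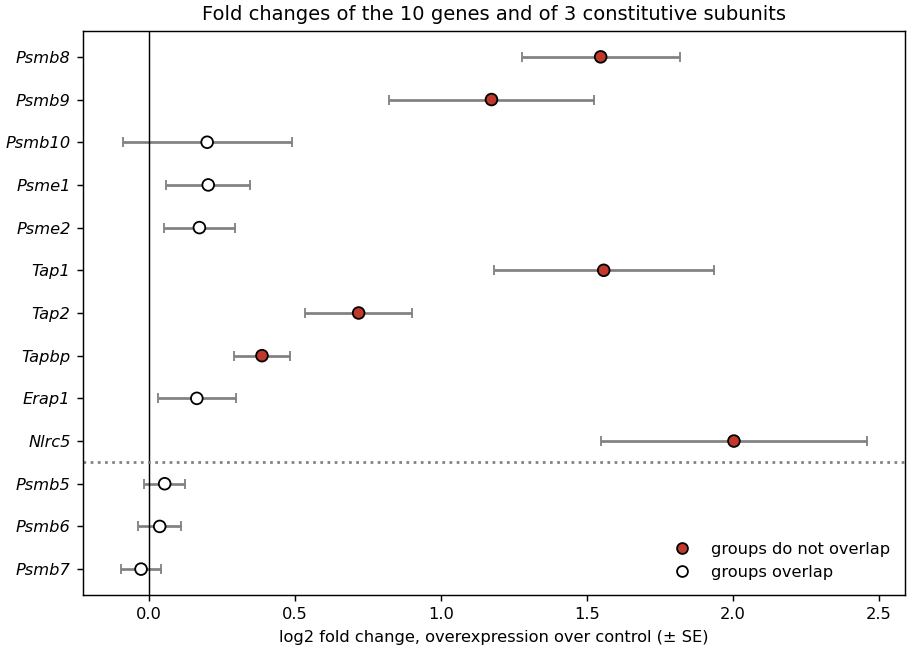
Log2 fold change of overexpression over control with its standard error from the edgeR fit, for the 10 genes and, under the dotted line, 3 constitutive subunits; filled points mark genes whose groups do not overlap. Nlrc5 lies at 2.004 and Tapbp at 0.39 among the filled points, and Psmb5, Psmb6 and Psmb7 lie between −0.03 and 0.05.

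Psmb8 encodes the inducible subunit that takes the place of Psmb5. It had 5.45, 10.9 and 8.06 CPM in overexpression replicates 1 to 3, against 2.65, 2.34 and 3.27 CPM in control replicates 1 to 3. The lowest overexpression library thus exceeded the highest control library, by more than the spread among controls. The log2 fold change was 1.55 (SE 0.27), a fold of 2.92, with an unadjusted p of 0.000466 and adjusted p = 0.590 in edgeR's quasi-likelihood test and adjusted p = 0.000115 in DESeq2. By unadjusted p it ranked 15 of all genes tested, the smallest p of the 10. Psmb8 shares 498 exonic bases with Gm20496, a gene on the opposite strand that had 0 counts in every library.

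Psmb9 encodes the counterpart of Psmb6. It had 2.51, 4.06 and 3.28 CPM in overexpression and 0.811, 1.39 and 2.08 CPM in control. The groups came close, since control replicate 3 lay just under overexpression replicate 1. Its log2 fold change was 1.17 (SE 0.35), with adjusted p = 0.999963 in edgeR's quasi-likelihood test and 0.274 in DESeq2, and without control replicate 1 it was 0.90.

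Psmb10, the counterpart of Psmb7, had 9.12, 13.3 and 15.6 CPM in overexpression and 11.7, 7.22 and 14.2 CPM in control. Here the groups were interleaved, with the lowest value in a control library and the next lowest in an overexpression library. The log2 fold change of 0.20 (SE 0.29) was smaller than its standard error and became −0.028 without control replicate 2. The log2 ratio of Psmb8 to Psmb10 was −0.66 ± 0.34 in overexpression and −1.958 ± 0.29 in control (SD, n = 3 each), a ratio chosen after the values were seen and not tested.

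The constitutive subunits gave a reference within each library. Psmb5 averaged 50.3 ± 2.63 CPM in overexpression and 48.4 ± 2.10 CPM in control, Psmb6 63.7 ± 4.11 and 62.1 ± 3.03 CPM, and Psmb7 74.1 ± 3.27 and 75.5 ± 4.04 CPM (SD, n = 3 each). All 3 overlapped between the groups. Psmb7 shares 405 exonic bases with Nek6, a gene on the opposite strand that averaged 31.4 CPM in overexpression and 31.1 CPM in control. Psmb5 shares 109 exonic bases with Mir686 on the same strand. Per kilobase of merged exon, Psmb8 stood at 3.06%, 5.53% and 4.24% of Psmb5 in overexpression, against 1.47%, 1.35% and 1.72% in control. Psmb9 stood at 2.15%, 3.06% and 2.66% of Psmb6 in overexpression, against 0.643%, 1.20% and 1.74% in control. Psmb10 stood at 24.7%, 34.6% and 44.3% of Psmb7 in overexpression, against 29.9%, 20.4% and 37.0% in control. On this scale the constitutive form thus exceeded the inducible form in every library and for every pair. The margin was widest for Psmb9 except in control replicate 3. That exception depends on merged exon length, which was 3.381 kilobases for Psmb8 and 0.899 for Psmb5. In counts, the log2 ratio in control replicate 3 was −4.87 for Psmb9 to Psmb6 and −3.95 for Psmb8 to Psmb5. The gap between the percentages of Psmb8 and Psmb10 also depends on length, with 1.705 kilobases for Psmb10 and 3.421 for Psmb7. In counts, Psmb8 to Psmb5 averaged −2.68 ± 0.43 and Psmb10 to Psmb7 −2.58 ± 0.42 in overexpression, on the log2 scale. In control these averages were −4.14 ± 0.18 and −2.83 ± 0.43 (SD, n = 3 each).

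These ratios do not depend on any scaling between libraries. The log2 ratio of Psmb8 to Psmb5 was higher by 1.47 in overexpression, and that of Psmb9 to Psmb6 by 1.23. Both pairs separated the groups, with an exact two-sided permutation p = 0.1, the smallest that 3 libraries against 3 can give, and p = 0.15 after Benjamini-Hochberg adjustment over 3 ratios. For Psmb10 to Psmb7 the difference was 0.25, with an exact permutation p = 0.6. Without overexpression replicates 1 and 2 the 3 differences were 1.496, 1.27 and 0.65.

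**Figure D3:**
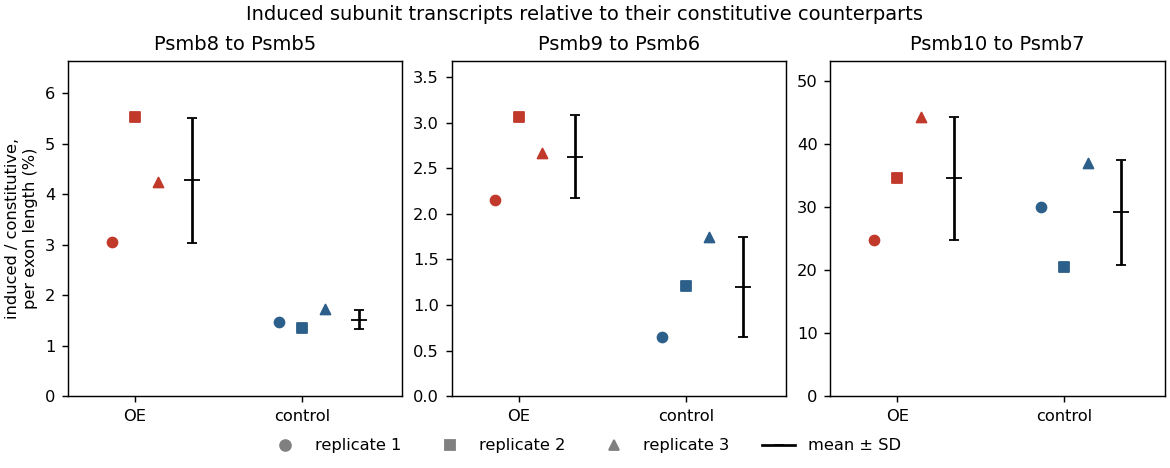
Level of each inducible subunit as a percentage of its constitutive counterpart, both per kilobase of merged exon, in each overexpression (OE) and control library (linear axes from 0, bars give the mean ± SD of 3 libraries). Psmb8 relative to Psmb5 lies between 3.06% and 5.53% in overexpression and between 1.35% and 1.72% in control, while Psmb10 relative to Psmb7 overlaps.

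The stretches just before the annotated starts of Psmb8, Tap1 and Psmb10 are shown because the first pair of genes separated the groups and the last did not. Each run is the 250 bases before the RefSeq start (GRCm38.p6, the assembly of mm10), read 5′ to 3′ on the strand of the gene. Capitals mark a match to the gamma-interferon activation site, written TTCNNNGAA. Psmb8 lies on the plus strand at chr17:34197945-34198194. Tap1 lies on the plus strand at chr17:34187306-34187555. Psmb10 lies on the minus strand at chr8:105938393-105938642.
Psmb8: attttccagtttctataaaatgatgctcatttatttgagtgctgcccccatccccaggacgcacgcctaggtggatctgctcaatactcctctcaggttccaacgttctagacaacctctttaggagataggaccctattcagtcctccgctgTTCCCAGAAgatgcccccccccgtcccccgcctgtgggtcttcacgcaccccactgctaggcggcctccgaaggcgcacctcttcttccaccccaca
Tap1: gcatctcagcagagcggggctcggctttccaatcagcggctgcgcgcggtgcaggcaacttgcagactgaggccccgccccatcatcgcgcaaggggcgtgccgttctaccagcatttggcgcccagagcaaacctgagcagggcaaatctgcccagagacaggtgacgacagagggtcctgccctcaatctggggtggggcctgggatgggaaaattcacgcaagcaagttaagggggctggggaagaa
Psmb10: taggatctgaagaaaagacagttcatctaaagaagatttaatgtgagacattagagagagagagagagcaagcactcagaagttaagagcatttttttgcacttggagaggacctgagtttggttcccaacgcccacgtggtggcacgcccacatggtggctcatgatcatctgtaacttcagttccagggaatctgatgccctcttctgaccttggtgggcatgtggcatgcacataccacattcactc

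Windows were found for 8 of the 10 genes, and Tap2 and Nlrc5 were not matched. Both strands were searched for TTCNNNGAA, which reads the same on either strand, and for the interferon-stimulated response element written GAAA, any 2 bases, GAAA. TTCNNNGAA was found for 1 of the 8 genes, Psmb8, starting 97 bases before its start, and in 7.02% of 32807 mouse promoter windows of that length. The second motif was found for 0 of the 8, and in 2.97% of all windows. The gene positions given below come from GENCODE, another annotation. For Psmb8, Psmb9, Psme1, Tapbp and Erap1 they begin further upstream, so the windows of these genes lie inside them. Tap1 and Psmb9 are read in opposite directions from starts 226 bases apart, so that 225 bases of their windows are the same stretch of DNA.

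Psme1 and Psme2 encode the subunits of PA28, a cap that opens the proteasome and speeds peptide release. Psme1 had 21.9, 28.8 and 23.4 CPM in overexpression and 18.2, 21.3 and 24.8 CPM in control. Psme2 had 16.5, 19.3 and 14.6 CPM in overexpression and 14.9, 13.8 and 15.9 CPM in control. For both genes the highest library was overexpression replicate 2, and the rest overlapped. Psme1 differed by 0.20 (SE 0.14) and Psme2 by 0.17 (SE 0.12) on the log2 scale, both at an adjusted p = 0.999963 in edgeR's quasi-likelihood test, and the difference of Psme2 was −0.030 without overexpression replicates 1 and 2. The count of Psme2 is uncertain because of a related gene, Psme2b, which averaged 2.08 CPM in overexpression and 2.04 CPM in control.

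Tap1 and Tap2 encode the partner chains of the peptide transporter. Tap1 had 4.71, 9.99 and 6.99 CPM in overexpression and 1.45, 2.39 and 3.41 CPM in control. Tap2 had 6.89, 9.59 and 9.05 CPM in overexpression and 4.37, 5.05 and 6.04 CPM in control. Both ran in the same order over the libraries, lowest in control replicate 1 and highest in overexpression replicate 2. The log2 fold change of Tap1 was 1.56 (SE 0.38), with adjusted p = 0.852 in edgeR's quasi-likelihood test and 0.00756 in DESeq2. That of Tap2 was 0.72 (SE 0.18), with adjusted p = 0.862 and 0.141. Within a library, the log2 ratio of Tap1 to Tap2 was −0.29 ± 0.31 in overexpression and −1.16 ± 0.39 in control (SD, n = 3 each), again chosen after the values were seen and not tested. Tap1 and Psmb9 share 212 exonic bases on opposite strands, and because the strand setting of the counting is not known, reads from that stretch may have been counted for either gene or for neither.

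Tapbp encodes tapasin, which holds empty class I molecules at the transporter. It had 31.1, 39.1 and 36.2 CPM in overexpression and 26.2, 27.1 and 27.96 CPM in control. The difference was small but larger than the spread of the controls, at 35.5 ± 4.02 CPM in overexpression and 27.1 ± 0.860 CPM in control (SD, n = 3 each). Its log2 fold change was 0.39 (SE 0.10), with adjusted p = 0.852 in edgeR's quasi-likelihood test. Zbtb22, which shares 149 exonic bases on the same strand, averaged 24.9 CPM in overexpression and 25.9 CPM in control. Gm19412, which shares 904 exonic bases on the opposite strand, averaged 0.381 and 0.322 CPM.

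Erap1 encodes the aminopeptidase that trims peptides in the endoplasmic reticulum. It had 11.9, 14.3 and 11.5 CPM in overexpression and 11.05, 9.95 and 12.6 CPM in control. Control replicate 3 exceeded overexpression replicates 1 and 3. Its log2 fold change was 0.16 (SE 0.13), with adjusted p = 0.999963 in edgeR's quasi-likelihood test. Erap1 shares 834 exonic bases with Cast, a gene on the opposite strand that averaged 12.5 CPM in overexpression and 11.6 CPM in control.

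Nlrc5 encodes the transcriptional activator that acts on class I genes and on several genes of their peptide supply. It had 4.81, 7.37 and 8.49 CPM in overexpression and 1.19, 0.926 and 2.92 CPM in control. Every overexpression library was above every control library, and the fold of 4.01 was the largest of the 10 genes. Control replicate 3 was the highest control, and without it the log2 fold change was 2.64. The log2 fold change was 2.004 (SE 0.46), with an unadjusted p of 0.00315 and adjusted p = 0.849 in edgeR's quasi-likelihood test and adjusted p = 0.000945 in DESeq2. Nlrc5 shares 78 exonic bases with 9330175E14Rik, a gene on the opposite strand that averaged 0.999 CPM in overexpression and 0.237 CPM in control. Ciita, the class II relative of Nlrc5, averaged 1.17 ± 0.259 CPM in overexpression and 0.953 ± 0.353 CPM in control (SD, n = 3 each), and its groups overlapped.

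Levels can be compared between genes per kilobase of merged exon, within a limit. Merged length pools the exons of every annotated transcript, so it can understate a gene whose longest forms are rare. Psmb8 had 3.381 kilobases by this measure and Psmb10 1.705, and the effect on the order of genes was not tested. On the per-kilobase scale the genes fell into an upper and a lower set in both groups. Psme1, Tapbp, Psme2 and Psmb10 had between 7.44 and 11.2 CPM per kilobase in overexpression and between 6.47 and 9.71 in control. Of these, Psme1, Tapbp and Psme2 lay within their SDs of each other in overexpression. The other 6 genes had between 0.811 and 2.41 CPM per kilobase in overexpression and between 0.198 and 1.54 in control. In control, Nlrc5 was the lowest at 0.198 ± 0.127, followed by Psmb9 at 0.390 ± 0.173 and Tap1 at 0.442 ± 0.179 (SD, n = 3), which did not differ beyond their SDs. In overexpression, Psmb9 at 0.897 ± 0.212 and Nlrc5 at 0.811 ± 0.222 CPM per kilobase (SD, n = 3) likewise lay within their SDs.

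The genes also shared an order over libraries within each group. Control replicate 3 was the highest control for all 10 genes. Overexpression replicate 1 was the lowest overexpression library for 8 of the 10, the exceptions being Psme2 and Erap1. Overexpression replicate 2 was the highest of all libraries for 8 of the 10, and replicate 3 for Psmb10 and Nlrc5. Some of these orders rest on small differences, as for Tapbp, whose controls ran from 26.2 to 27.96 CPM. The share of all genes tested with such orders was not counted, so whether they are particular to the 10 genes was not tested. The mean log2 CPM of the 10 genes was 3.14, 3.70 and 3.50 in overexpression replicates 1 to 3 and 2.41, 2.45 and 2.97 in control replicates 1 to 3. Over the 6 libraries, and among 16033 other genes with a mean of at least 1 CPM, the profiles most like that mean by Pearson's r belonged to Mx2 (r = 0.997), Igtp (0.996), Gbp3 (0.995), Ly6c2 (0.995) and Cd74 (0.994). These are descriptions over 6 libraries that share the same group difference, and Ly6c2 is also among the markers of infiltrating myeloid cells. Igtp, an interferon-induced GTPase, averaged 15.2 ± 6.82 CPM in overexpression and 3.81 ± 1.83 CPM in control, and Cd74, the class II invariant chain, 10.2 ± 3.56 and 2.69 ± 1.76 CPM (SD, n = 3 each).

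In mm10, Psmb9 (34181987 to 34187764, minus strand), Tap1 (34187553 to 34197225), Psmb8 (34197721 to 34201454) and Tap2 (34203527 to 34216321, all plus strand) lie next to each other on chromosome 17, within a stretch of 34.3 kilobases in the class II region of the MHC. Tapbp lies on the same chromosome from 33915899 to 33929292, on the plus strand. Between and including Tapbp and Tap2, 23 protein-coding genes were tested. The 18 that are not among the 10 genes had a median log2 fold change of 0.083. Of these 18, 2 were higher in every overexpression library than in any control library, beside 4.81% of all genes tested. They were the class I chain H2-K1 with a log2 fold change of 1.28 and Rgl2 with a fold of 1.17. Brd2, a chromatin reader between the class II genes, had a fold of 0.961, and Rps18, a ribosomal protein gene, 0.956. The class II loading genes H2-DMa and H2-DMb1 had folds of 1.04 and 1.152. These genes were picked by their position after values had been seen. Psme1 (55578123 to 55581529, plus strand) and Psme2 (55587441 to 55591113, minus strand) lie on chromosome 14. Psmb10 (105935735 to 105938444, minus strand) and Nlrc5 (94434356 to 94527272, plus strand) lie on chromosome 8, and Erap1 (74639568 to 74693201, plus strand) on chromosome 13. All 10 are protein-coding genes.

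The other proteasome genes lay close to a log2 fold change of 0. Of 11 other subunits of the core particle, 0 had an unadjusted p under 0.05 in edgeR's quasi-likelihood test and 0 passed the adjusted threshold in edgeR or DESeq2, with log2 fold changes from −0.01 to 0.10. The smallest p among them belonged to Psmb2, at 39.6 ± 1.0 CPM in overexpression and 37.0 ± 0.541 CPM in control, followed by Psma1 at 54.2 ± 1.97 and 50.8 ± 2.63 CPM, and by Psma7 at 68.9 ± 3.39 and 64.4 ± 5.76 CPM (SD, n = 3 each). The 18 subunits of the regulatory particle also had 0 at an unadjusted p under 0.05 and 0 called by either tool, with log2 fold changes from −0.06 to 0.12. Psmc2, an ATPase of that particle, averaged 72.1 ± 0.934 CPM in overexpression and 66.5 ± 2.81 CPM in control (SD, n = 3 each). Among 8 other activators, inhibitors and assembly factors tested, 0 reached an unadjusted p under 0.05 in edgeR and 0 were called by either tool. The assembly chaperone Psmg2 averaged 13.9 ± 0.734 CPM in overexpression and 12.6 ± 0.628 CPM in control (SD, n = 3 each). In these lists 1 of 11, 2 of 18 and 2 of 8 genes were higher in every overexpression library than in any control. Psmb2, Psmc2 and Psmg2 were among them. The share of all genes tested was 4.81%. In the other direction there were 0, beside 4.11% of all genes tested. A p that misses the threshold does not show that the genes of these lists were equal in the groups.

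Of the 4 listed class I chains, which receive the peptides, 3 were higher in every overexpression library than in any control. The share of all genes tested was 4.81%. The exception was H2-T23, a nonclassical heavy chain, which had 13.7, 20.1 and 20.8 CPM in overexpression and 10.4, 6.53 and 14.8 CPM in control. All 4 listed chains had an unadjusted p under 0.05 in edgeR's quasi-likelihood test, all higher, beside 2.25% of all genes tested. In edgeR 0 passed the adjusted threshold, and the median log2 fold change was 1.21. DESeq2 called 2 higher, B2m and H2-K1, beside 0.345% of genes. B2m, the light chain, averaged 151 ± 23.9 CPM in overexpression and 68.2 ± 20.6 CPM in control (SD, n = 3 each). Counts of the heavy chains H2-K1 and H2-D1 are uncertain because of their close relatives. The other chaperones of class I folding had 0 of 5 at an unadjusted p under 0.05 and 0 called by edgeR or DESeq2. Among them Tapbpl, a relative of tapasin that edits peptides, averaged 6.21 ± 1.21 CPM in overexpression and 5.08 ± 1.22 CPM in control (SD, n = 3 each). Of 7 other peptidases, Lap3 had an unadjusted p of 0.0422 in edgeR's quasi-likelihood test, with 64.5 ± 1.95 CPM in overexpression and 72.4 ± 4.30 CPM in control (SD, n = 3 each), and 0 were called by edgeR or DESeq2.

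Of 14 receptors, kinases and transcription factors of interferon signalling tested, 12 had a log2 fold change above 0, beside 50.6% of all genes tested. At an unadjusted p under 0.05 in edgeR's quasi-likelihood test there were 7, all higher, beside 2.25% of all genes tested. In edgeR 0 passed the adjusted threshold, and DESeq2 called 1 higher, beside 0.345% of genes. Stat2 averaged 24.7 ± 3.04 CPM in overexpression and 19.01 ± 1.58 CPM in control (SD, n = 3 each), and Irf8, a factor of microglia and other myeloid cells, 8.74 ± 1.43 and 6.15 ± 0.720 CPM. The receptor gene Ifnar1 had a log2 fold change of −0.015. Of the interferon genes, Ifng and Ifnb1 were looked up. Ifng had 2 counts in overexpression replicate 2 and 0 in every other library, and Ifnb1 had 0 in all 6. Ciita and 6 RFX and NF-Y subunits act at the promoters of class I and class II genes. Among them 0 of 7 had an unadjusted p under 0.05 in edgeR and 0 were called by either tool. Of the 7, Nfya and Nfyb, 2 genes, were higher in every overexpression library than in any control, beside 4.81% of all genes tested.

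**Figure D4:**
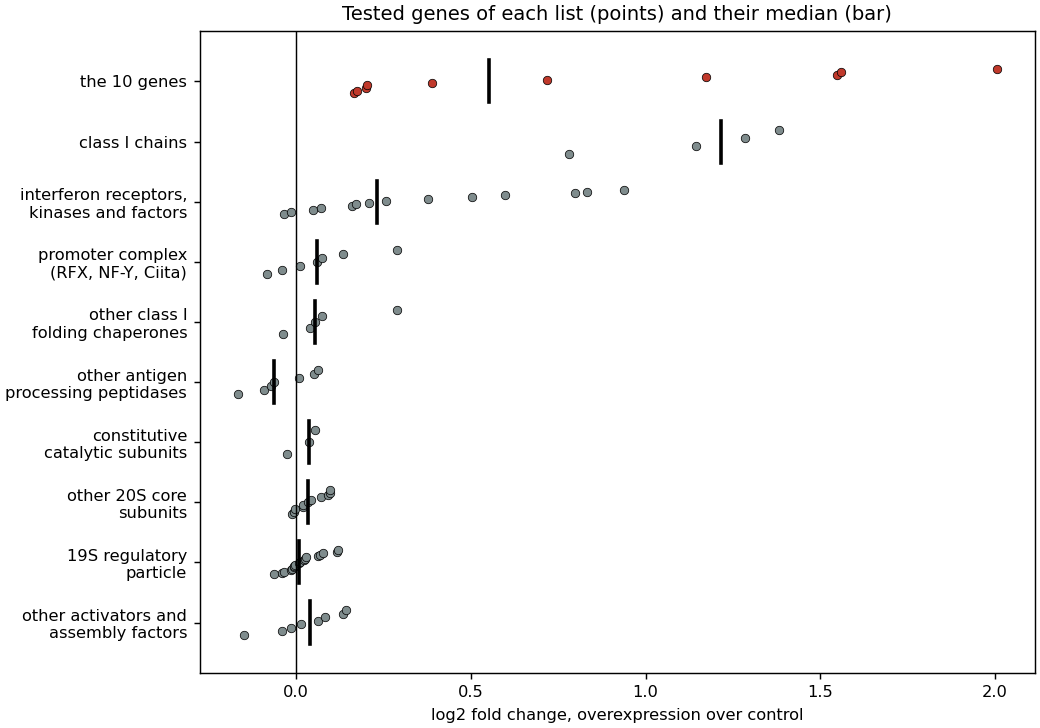
Log2 fold change of overexpression over control for each tested gene of 10 lists, with the list median as a bar. The 10 genes spread from 0.16 to 2.004 and the class I chains from 0.78 to 1.38, while the proteasome lists lie between −0.15 and 0.14.

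Markers of some other cell types differed between the groups in the direction of these genes. Apart from Cd4, set aside after its values were seen, which had between 41.3 and 80.2 CPM in overexpression and between 40.01 and 77.4 CPM in control, the other 9 T and NK cell markers summed to 5.02, 7.01 and 5.69 CPM in overexpression and to 0.978, 1.44 and 2.05 CPM in control. Of the full list of 10 markers, 7 were tested. Of those, 6 were higher in every overexpression library than in any control library, beside 4.81% of all genes tested. Cxcr6, a chemokine receptor of T and NK cells, had 0.963, 1.08 and 0.854 CPM in overexpression and 0.119, 0.122 and 0.272 CPM in control. Its log2 fold change was 2.195 (SE 0.41), with adjusted p = 0.531 in edgeR's quasi-likelihood test and 0.00994 in DESeq2, the 1 DESeq2 call of the list. Gzmb, a cytotoxic granule gene, had 4, 9 and 4 counts in overexpression and 0 in every control library. Cd3d was at 0 in control replicates 1 and 2, Cd3e in control replicate 2 and Cd8a in control replicate 1. Markers of infiltrating myeloid cells, 8 genes, summed to 5.67, 9.81 and 6.70 CPM in overexpression and 4.03, 2.66 and 4.38 CPM in control, with Ccr2 at 0 in control replicate 1. The sum of 10 microglia markers overlapped between the groups, at 387 to 523 CPM in overexpression and 457 to 485 CPM in control, although 1 of them, Fcrls, was lower in every overexpression library, at 13.8 ± 2.65 CPM in overexpression and 19.3 ± 1.84 CPM in control (SD, n = 3 each). The sum of 8 endothelial markers also overlapped, at 231 to 263 CPM in overexpression and 201 to 276 CPM in control. The 7 astrocyte markers summed to 4354 to 5010 CPM in overexpression and 5067 to 5459 CPM in control, a sum made up mostly of the glutamate transporter gene Slc1a2, and 5 of the 7 had a log2 fold change below 0. Gfap, a filament gene that is high in reactive astrocytes, went the other way, with 300.5, 264 and 242 CPM in overexpression and 208, 134 and 180.5 CPM in control. Its log2 fold change was 0.63 (SE 0.16), with adjusted p = 0.968 in edgeR's quasi-likelihood test and 0.0478 in DESeq2. The sum of 6 thalamic neuron markers was lower in every overexpression library, at 94.2 to 105 CPM in overexpression and 112 to 147 CPM in control. Meningeal fibroblast markers, 6 genes, lay at 38.5 to 123 CPM in overexpression and 32.7 to 40.3 CPM in control. The part of these cell types in the result was not tested.

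Choroid plexus markers were high in overexpression replicates 1 and 2, and the 10 genes were therefore also compared without those libraries. Overexpression replicate 3, with 316 CPM of choroid plexus markers, had 8.06 CPM of Psmb8, 6.99 CPM of Tap1 and 8.49 CPM of Nlrc5. With that replicate as the only overexpression library, the log2 fold changes were 1.53 for Psmb8, 1.51 for Tap1 and 2.30 for Nlrc5. Psmb9 stood at 1.17, Tap2 at 0.81 and Tapbp at 0.41. Among the genes whose groups overlapped, Psmb10 stood at 0.50, Psme1 at 0.13, Psme2 at −0.030 and Erap1 at 0.036. In a fit of all 6 libraries that included choroid plexus level as a term, Psme2 stood at 0.015, Erap1 at 0.050 and Psme1 at 0.11, while Psmb8 stood at 1.38, Tap1 at 1.39 and Nlrc5 at 2.15. In overexpression replicate 3, 7 of the 10 genes exceeded every control, beside 29.5% of all genes tested. Cortical neuron markers, 6 genes, differed widely within both groups, at 294, 609 and 1180 CPM in overexpression and 514, 105 and 930 CPM in control, and their part in the result was not tested.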

How the data were processed

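The 6 deposited files gave, for 1 library each, raw counts by Ensembl gene identifier. Per the labels' protocols, RNA was isolated with Trizol and made into strand-specific TruSeq libraries. The tools named in the submitters' processing notes are STAR 2.5.3a, DESeq 1.16.1, Cuffnorm and FastQC 0.11.5, with build mm10. The sources used here give neither their roles nor the counting program and its strand setting. Overlapping and near-identical genes are therefore uncertain. Symbols, positions and merged exon lengths came from GENCODE M21 (55154 of 55335 identifiers matched), and promoter windows from RefSeq (GRCm38.p6). Libraries were grouped by title. Replicates differed by more than sampling noise (chi-square per degree of freedom from 20.9 to 54.9 within groups).

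The groups were compared by robust two-sided quasi-likelihood tests in edgeR 4.0.16 (R 4.3.3) with TMM factors. The filterByExpr rule kept 19809 genes, all 10 among them, and p-values were adjusted over these by Benjamini-Hochberg, with a threshold of 0.05. CPM values use TMM-adjusted totals, and log2 fold changes and levels a prior count of 2. Standard errors are the fitted log2 change over the square root of F. Ratios between genes used counts plus 0.5, compared by exact permutation. The procedures were tested on simulated counts. Alternatives were DESeq2 1.42.0, limma-voom (limma 3.58.1), other size factors, filters, prior counts and pseudocounts, a replicate block, a choroid plexus covariate and libraries left out.

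The 10 genes and the lists were chosen with earlier results of these data known, so no test was made over a list. Genes named are the 10, Psmb5, Psmb6, Psmb7, Pde5a, up to 3 genes per pathway list by smallest p (1 of them is not reported here), up to 2 per cell type list, and the 5 with the most similar profile; Cd3d, Cd3e, Cd8a, Cd4, H2-T23, Ciita, Ifnar1, Ifng, Ifnb1, overlapping genes and chromosome 17 neighbours were named after their values were seen.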

Additional observations from a re-analysis of the deposited data

How the results depend on the processing

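Of the 10 genes, 0 passed the adjusted threshold in the main fit and in each of 15 alternatives; the DESeq2 Wald test called 3. The median log2 fold change of the 10 genes stayed positive in all 16 alternatives, from 0.30 where a minimum of 1 CPM in every library was set, which left 8 of the 10, to 0.66 without overexpression replicate 1. The number of genes called over the whole table was 1 in the main fit, 86 with the DESeq2 Wald test, 6 with limma-voom, 3 with no filter on low counts and 5 without overexpression replicates 1 and 2, and from 1 to 2 when 1 library was left out; the cause was not tested. A direction turned in 2 cases, Psmb10 at −0.028 without control replicate 2 and Psme2 at −0.030 without overexpression replicates 1 and 2. Leaving out 1 library in turn gave log2 fold changes of −0.028 to 0.42 for Psmb10, 1.72 to 2.64 for Nlrc5, medians of 0.47 to 0.66, log2 ratio differences of 1.26 to 1.69 for Psmb8 to Psmb5, 0.84 to 1.56 for Psmb9 to Psmb6 and 0.01 to 0.47 for Psmb10 to Psmb7, and 0 of the 10 called each time.

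Same-numbered libraries correlated at −0.02, 0.03 and 0.29 in their deviations from the group means, and 3 of the 6 libraries correlated best with their own number, so the numbers were not taken as pairs. With a replicate block 3 genes were called over the whole table, 0 of them among the 10, whose median was 0.55. In a paired exact permutation test the ratios of Psmb8 and Psmb9 gave p = 0.25, the smallest for 3 pairs. Psmb9, with 34 to 135 counts, and Nlrc5, with 38 to 318, were the least deeply counted of the 10 genes.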
